A study of Homo sapiens with 16 samples.

Results

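The genes described here are 10 brakes on cell division: the cyclin-dependent kinase (CDK) inhibitor genes CDKN1A, CDKN1B, CDKN1C, CDKN2B, CDKN2C and CDKN2D, the atypical cyclin gene CCNG2, and the antiproliferative genes BTG1, BTG2 and TOB1. They were chosen by name, as listed members of these families, and not by a rule on measured values, but earlier results of these data were known. Other genes of these families are described separately. They are 10 of the 26364 genes in the count tables, and all 10 passed the filter on low counts in both cell lines, where 15787 (Ishikawa) and 15594 (T-47D) genes were tested. Bulk RNA-seq was used to follow the response to 17β-estradiol (E2) in 2 established cell lines, Ishikawa, from a human endometrial adenocarcinoma, and T-47D, from a human breast carcinoma. Both lines were moved from full serum to phenol-red-free medium with charcoal-stripped serum, for 3 days by the sample labels, and then received 10 nM E2 for 2, 4 or 8 h, with the 0 h cultures given vehicle as the study describes. Each time point had 2 libraries per line, which gave 8 libraries per line and 16 in all.

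The members act on the step from G1 into DNA synthesis, where cyclin D with CDK4 or CDK6 and cyclin E with CDK2 phosphorylate the retinoblastoma protein and free the E2F factors. The CIP/KIP proteins, from the CDKN1 genes, bind cyclin and kinase together and chiefly block CDK2. The INK4 proteins, from the CDKN2 genes, bind CDK4 and CDK6 alone, while BTG and TOB proteins recruit the CCR4-NOT deadenylase to mRNAs and cyclin G2 accumulates in cells that leave the cycle. E2 is a mitogen for estrogen receptor positive breast and endometrial cells, and these genes encode proteins that oppose that step.

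Total counts ranged from 41177912 to 58918642 per Ishikawa library and from 41223813 to 64148903 per T-47D library, which is the depth behind every value. The 4 epithelial markers and the estrogen receptor markers ESR1, PGR and GREB1 were above 1 CPM (a count scaled by library size) in both lines. All 4 endometrial markers (PAX8, EMX2, HOXA10, HOXA11) were above 1 CPM in Ishikawa and 0 of 4 in T-47D, while GATA3 and TFF1 marked T-47D only, and the third luminal marker, ANKRD30A, was not above 1 CPM in either line. In Ishikawa cells, the 4 h and 8 h libraries did not separate by their labels. Between 8 h and 4 h, 2 of 15787 genes passed an adjusted p of 0.05 in Ishikawa (554 at an unadjusted p under 0.05), against 533 of 15594 in T-47D. The root-mean-square log2 difference was 0.391 between the 4 h replicates and 0.353 between the 8 h replicates, and 0.329 between replicate 2 of 4 h and replicate 1 of 8 h. Ishikawa values at 4 h and 8 h are therefore also given with the 4 libraries as 1 group.

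The promoters of 5 members are shown because their transcripts gave the clearest changes: TOB1 rose and CCNG2 and BTG2 fell in both lines, and BTG1 and CDKN2B fell in T-47D. Each sequence is the 250 bases before the start site in the RefSeq promoter table, placed on GRCh37 by exact match. Capitals mark matches, on either strand, to the GC box GGGCGG bound by SP1, the CCAAT box, the E-box CACGTG, the TATA box TATAAA and the forkhead motif GTAAACA.
TOB1, chr17:48943716-48943965, minus strand: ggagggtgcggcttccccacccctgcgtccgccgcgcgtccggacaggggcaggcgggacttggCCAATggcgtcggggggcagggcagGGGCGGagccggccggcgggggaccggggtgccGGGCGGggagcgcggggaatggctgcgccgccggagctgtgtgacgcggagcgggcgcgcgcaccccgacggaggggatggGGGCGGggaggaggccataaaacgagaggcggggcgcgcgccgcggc
CCNG2, chr4:78078110-78078359, plus strand: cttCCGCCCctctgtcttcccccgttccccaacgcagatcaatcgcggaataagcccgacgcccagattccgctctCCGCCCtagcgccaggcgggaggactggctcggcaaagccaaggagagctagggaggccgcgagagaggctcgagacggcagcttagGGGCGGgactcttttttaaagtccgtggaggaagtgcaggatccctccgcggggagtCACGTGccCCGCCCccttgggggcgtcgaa
BTG2, chr1:203274397-203274646, plus strand: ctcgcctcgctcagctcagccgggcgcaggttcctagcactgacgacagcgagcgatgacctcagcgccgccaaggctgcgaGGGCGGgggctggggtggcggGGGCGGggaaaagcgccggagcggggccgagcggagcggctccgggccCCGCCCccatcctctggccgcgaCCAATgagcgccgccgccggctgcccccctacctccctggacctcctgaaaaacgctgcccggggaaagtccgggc
BTG1, chr12:92539623-92539872, minus strand: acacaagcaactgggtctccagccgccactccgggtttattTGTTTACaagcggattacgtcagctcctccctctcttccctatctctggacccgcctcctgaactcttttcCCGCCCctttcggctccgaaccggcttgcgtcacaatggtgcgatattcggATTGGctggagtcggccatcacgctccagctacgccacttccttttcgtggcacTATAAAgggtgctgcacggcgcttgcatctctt
CDKN2B, chr9:22009305-22009554, minus strand: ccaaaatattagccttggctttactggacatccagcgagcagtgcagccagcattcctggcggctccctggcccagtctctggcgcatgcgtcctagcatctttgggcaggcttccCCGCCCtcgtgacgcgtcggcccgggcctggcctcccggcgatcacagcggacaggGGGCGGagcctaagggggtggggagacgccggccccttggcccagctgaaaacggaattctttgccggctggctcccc

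All 9 members in the promoter table held a GC box in a listed promoter, which 42.6% of the 35116 promoters in the table and 64.04% of the promoters of 12092 tested genes held as well. The CCAAT box was found in 6 of the 9, against 34.5% of tested genes, and the E-box in CDKN2C and CCNG2, against 8.58%. Members were counted on any of their listed promoters and tested genes on their first listed promoter alone, so these shares are not like for like. The first listed promoters of CDKN2C and TOB1 held neither a GC box nor a CCAAT box. BTG1 was the only member with the forkhead motif (1.93% of tested genes) or the TATA box (5.81%). The palindromic estrogen response element GGTCANNNTGACC was found in 0 of 9, as in nearly all promoters (14 of 35116), and its GGTCA arm, not capitalised, was found in CDKN2D, BTG2 and the upstream promoter of TOB1, which is not shown, and in 30.3% of tested genes. Motifs for AP-1 (TGANTCA), the cAMP response factor (TGACGTCA) and p53 were found in 0 of 9. Within 10000 bases either side of the annotated start, no exact palindrome lay at any of the 10 members, against 309 of 16385 tested genes (1.89%). A match, or its lack, describes letters in these windows. TOB1 has another start upstream, with its window on chr17:48945340-48945589, which is listed first and is the annotated start of the gene. The 250 bases there held none of the capitalised motifs. They were 38.4% G or C, compared with 80.4% in the window shown and a median of 64.4% over tested genes. Most members have few exons: 6 of 10 had at most 2 in their longest transcript, against 14.6% of 16385 annotated tested genes. Not all are compact, since CCNG2 had 8 exons over a span of 276183 bases and CDKN1B spanned 36872 bases. The medians over these tested genes were 7 exons and 30426 bases.

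Before E2, the lines held these genes at very different levels. Levels between genes are compared as CPM per kilobase of annotated exon, from the mean of the 2 libraries at 0 h ± SD (n = 2). In Ishikawa cells, CDKN1A, which encodes p21 and is a p53 target, was highest at 25.7 ± 0.552 CPM per kb, followed by BTG2 at 16.1 ± 0.0362. CDKN2C, CCNG2 and TOB1 came next at 13.4, 13.4 and 13.1 CPM per kb, and their libraries overlapped. CDKN1B followed at 10.8 ± 0.577 CPM per kb, then CDKN2B at 3.44, BTG1 at 3.21 and CDKN1C at 3.15, of which BTG1 and CDKN1C overlapped and CDKN2B and BTG1 were apart by 3.36 against 3.35 in their nearest libraries. CDKN2D, encoding p19, was lowest at 2.25 ± 0.139 CPM per kb. In T-47D cells, the order was led by TOB1 at 94.5 ± 1.47 and BTG1 at 91.8 ± 3.10 CPM per kb, whose libraries overlapped. CDKN2B, encoding p15, followed at 26.6 ± 1.99 CPM per kb. CCNG2 at 18.3 and CDKN1A at 17.7 CPM per kb were next and were close, with nearest libraries at 18.3 and 18.2. Below them stood CDKN2C at 11.9, CDKN1B at 4.34, CDKN2D at 3.43, BTG2 at 2.51 and CDKN1C at 0.352 CPM per kb, with no overlap between neighbours. The level of CDKN1B depended on the gene model, since its longest transcript is shorter than its summed exons. Per kb of longest transcript it was 23.0 in Ishikawa, second to CDKN1A, and 9.26 in T-47D. Other Ishikawa ranks moved as well on that measure. CCNG2 (18.1) stood above BTG2 (16.3), TOB1 (14.7) and CDKN2C (14.0), and CDKN1C (4.04) above CDKN2B (3.57) and BTG1 (3.37). The order in T-47D was unchanged.

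**Figure D1:**
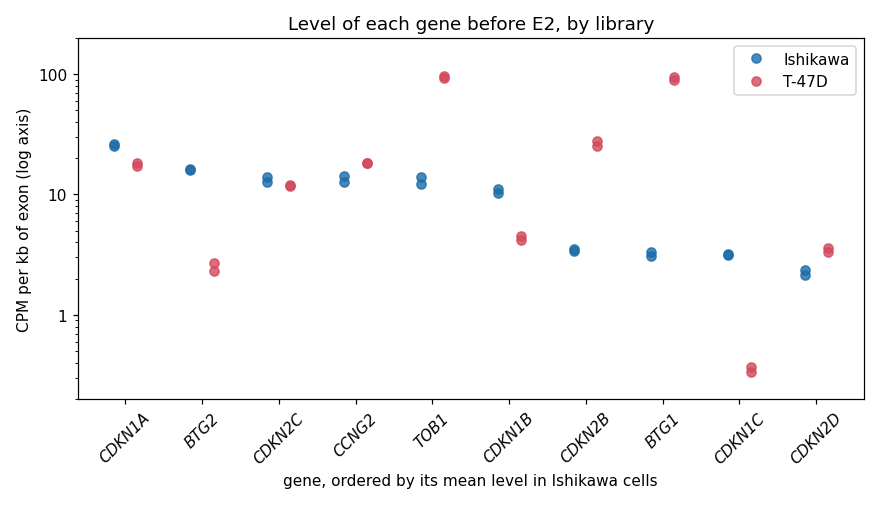
Level of each gene before E2 in CPM per kb of exon (log axis), 1 point per library, 2 libraries per line. TOB1, BTG1 and CDKN2B sit far higher in T-47D, and BTG2 and CDKN1C far higher in Ishikawa.

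All 10 members differed between the lines at 0 h in the quasi-likelihood test of edgeR, with p adjusted by the Benjamini-Hochberg method, but so did 81.9% of 17090 genes. BTG1 was furthest apart, at 16.3 and 14.9 CPM in Ishikawa and 435 and 456 CPM in T-47D, a log2 difference (T-47D minus Ishikawa) of 4.84 ± 0.0758 (SE). CDKN2B differed by 2.95 and TOB1 by 2.85 on the log2 scale, both higher in T-47D, and CDKN2D and CCNG2 were 0.61 and 0.46 higher there. In the other direction, CDKN1C, encoding p57, differed by -3.16 and BTG2 by -2.68, while CDKN1B, encoding p27, differed by -1.31 and CDKN1A by -0.54. CDKN2C, encoding p18, differed least at -0.18 (adjusted p = 0.0296), and this call was lost under DESeq2 (adjusted p = 0.0605) and in 5 of the 16 fits that left out 1 library (either 0 h replicate of T-47D, replicate 1 of Ishikawa 0 h, where it moved to -0.09, or of 2 h, and replicate 1 of T-47D 4 h). Line and culture cannot be told apart in this comparison, and in bulk RNA fewer expressing cells and less RNA per cell cannot be told apart in any of the values here.

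**Figure D2:**
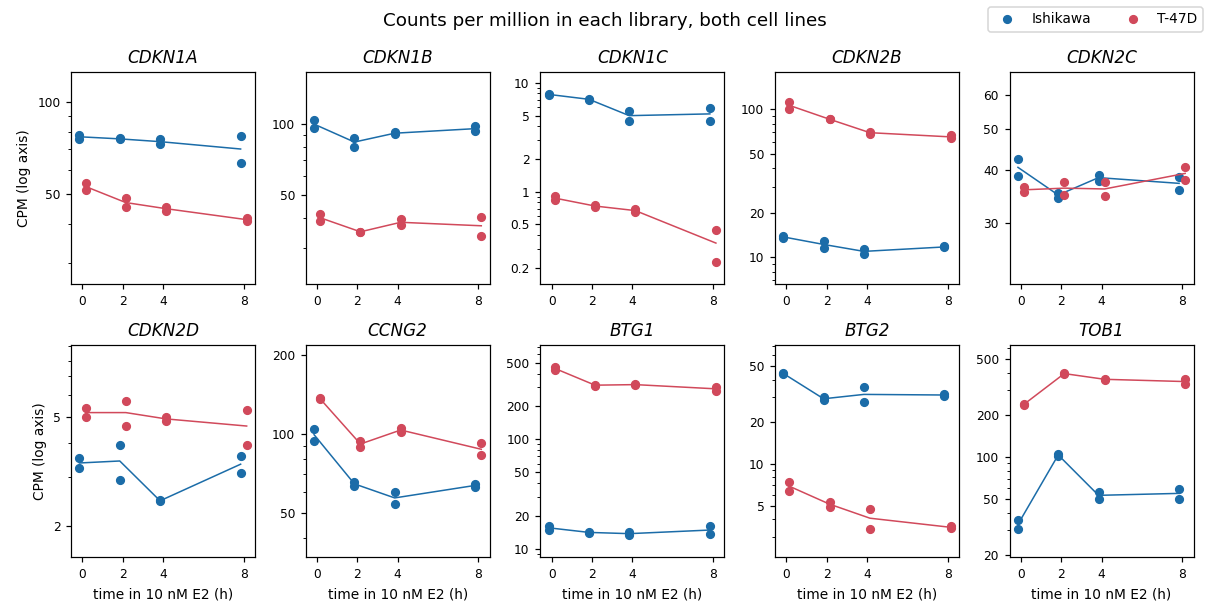
CPM of each gene in each library (log axes, 1 panel per gene) against hours in 10 nM E2; points are libraries and lines join the means of 2. TOB1 peaks at 2 h in both lines, while CCNG2 and BTG2 lie below their 0 h points at every later time.

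After E2, TOB1 was the only member that rose, and it did so at every time point in both lines. CCNG2 fell at every time point in both lines, and BTG2 at every time point in Ishikawa and at 4 h and 8 h in T-47D. BTG1, CDKN2B and CDKN1A fell in T-47D, CDKN1C fell late in both lines, and CDKN2C and CDKN2D did not pass the test in any contrast against 0 h. In Ishikawa, CDKN1B also passed downward at 2 h and CDKN2B at 4 h, and both calls were lost in some alternative fits. In Ishikawa cells, 4 of 10 members passed at 2 h (4.35% of all tested genes passed): 1 rose (2.61% of genes rose) and 3 fell (1.74%). At 4 h, 5 passed (14.3%), of which 1 rose (7.66%) and 4 fell (6.60%). At 8 h, 4 passed (22.1%), of which 1 rose (12.0%) and 3 fell (10.1%). With the 4 h and 8 h libraries as 1 group, 5 passed (25.7%), namely TOB1, CDKN1C, CDKN2B, CCNG2 and BTG2. In T-47D cells, 4 of 10 passed at 2 h (9.30%), 1 upward (4.90%) and 3 downward (4.40%). The count was 6 at 4 h (21.5%), 1 upward (11.1%) and 5 downward (10.4%), and 7 at 8 h (29.7%), 1 upward (15.4%) and 6 downward (14.3%). The members' median log2 fold change was -0.15, -0.24 and -0.13 at 2, 4 and 8 h in Ishikawa and -0.23, -0.31 and -0.49 in T-47D, whereas the median over all tested genes stayed between -0.0094 and 0.0047. The comparisons within a line share their 0 h libraries, so they are not independent of each other, and the labels do not say whether replicates came from separate cultures, so the p-values measure only the spread between these libraries.

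**Figure D3:**
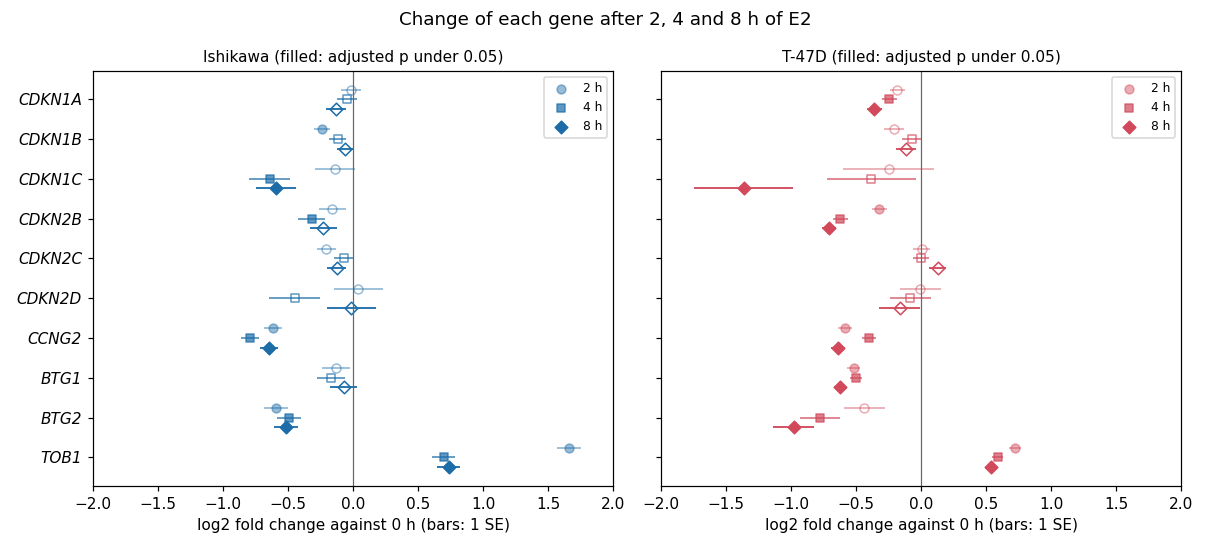
log2 fold change against 0 h for each gene at 2, 4 and 8 h (bars, 1 SE), Ishikawa left and T-47D right; filled points passed an adjusted p of 0.05. TOB1 is the only gene to the right with filled points, and CDKN2C and CDKN2D have none.

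Among the CIP/KIP genes, CDKN1A fell in T-47D and CDKN1C fell in both lines, while CDKN1B passed the test after E2 only at 2 h in Ishikawa. CDKN1A in T-47D was 54.5 and 51.6 CPM without E2, 45.5 and 48.6 after 2 h, 45.6 and 44.3 after 4 h, and 42.0 and 40.8 after 8 h. Every treated library was below both 0 h libraries. The log2 fold change was -0.18 ± 0.0572 (SE) at 2 h (adjusted p = 0.0553), -0.24 ± 0.0567 at 4 h (adjusted p = 0.00456) and -0.36 ± 0.0573 at 8 h (adjusted p = 0.00011), so that p21 mRNA reached 78.0% of its 0 h level. Without replicate 2 of 4 h, the 4 h call was lost (adjusted p = 0.0548). In Ishikawa, CDKN1A was 75.8 and 78.1 CPM without E2 and 77.3 and 63.1 after 8 h, and the groups overlapped. Its log2 fold changes there were -0.01, -0.05 and -0.13, with none passing the test. Its 8 h value rested on replicate 1 of 8 h, without which it was -0.28 and passed (adjusted p = 0.0261).

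CDKN1B, whose protein p27 is controlled largely by degradation through SKP2, was 103 and 95.8 CPM without E2 in Ishikawa and 80.1 and 87.3 after 2 h, without overlap. It fell by 0.24 ± 0.0617 (SE) on the log2 scale (adjusted p = 0.0375), and the libraries at 4 h (92.0 and 90.3 CPM) and 8 h (97.8 and 92.8 CPM) lay between. The 2 h call was lost when only the 0 h and 2 h libraries were fitted (adjusted p = 0.0541), and without replicate 1 of 0 h or either replicate of 2 h (adjusted p = 0.0856 to 0.471). In T-47D it was 41.5 and 38.8 CPM without E2 and 35.0 and 35.0 after 2 h, a log2 fold change of -0.21 that missed the threshold (adjusted p = 0.113) and passed with only the 0 h and 2 h libraries fitted (adjusted p = 0.0497) or without either 8 h library (0.0447 and 0.0468), and values at 8 h (33.7 and 40.6 CPM) overlapped 0 h. CDKN1B shares its locus with GPR19 on the opposite strand, with no exonic overlap, and GPR19 held 20 to 67 counts per library against at least 1450 for CDKN1B.

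CDKN1C, an imprinted inhibitor expressed from the maternal allele, was 7.88 and 7.77 CPM without E2 in Ishikawa, 7.004 and 7.10 after 2 h, 4.49 and 5.49 after 4 h, and 5.90 and 4.46 after 8 h. All 4 late libraries were below the 2 h and 0 h libraries. The log2 fold change was -0.64 ± 0.157 (SE) at 4 h (adjusted p = 0.0133), -0.59 ± 0.154 at 8 h (adjusted p = 0.0131) and -0.61 ± 0.127 with these libraries as 1 group (adjusted p = 0.00245). The separate calls were lost without replicate 2 of 0 h (adjusted p = 0.0816 and 0.0819), without replicate 1 of 4 h (0.130) and without replicate 2 of 8 h (0.117). In T-47D the gene was near the bottom of the detectable range, with 36 and 37 counts without E2, 34 and 31 after 2 h, 43 and 33 after 4 h, and 11 and 22 after 8 h. The 8 h libraries were below all others, and the log2 fold change there was -1.36 ± 0.383 (SE; adjusted p = 0.0115), its 95% interval running from -2.17 to -0.56. It ranged from -1.93 to -0.95 when each T-47D library was left out in turn, and was no longer called without replicate 2 of 0 h (adjusted p = 0.0606) or replicate 1 of 8 h (adjusted p = 0.113).

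Among the INK4 genes, CDKN2B fell at every time point in T-47D and CDKN2C and CDKN2D did not pass the test anywhere. CDKN2B, a classical target of TGFβ signalling through SMAD proteins, was 101 and 112 CPM without E2 in T-47D, 85.8 and 85.7 after 2 h, 68.5 and 70.7 after 4 h, and 63.6 and 66.8 after 8 h. No group overlapped with the next. The log2 fold change was -0.32 ± 0.0553 (SE) at 2 h (adjusted p = 0.000642), -0.62 ± 0.0553 at 4 h (adjusted p = 2.28e-07) and -0.71 ± 0.0557 at 8 h (adjusted p = 2.89e-08), leaving 61.3% of the 0 h level. Its difference of 8 h from 4 h, -0.09 ± 0.0558, did not pass (adjusted p = 0.487). In Ishikawa, it was 14.0 and 13.5 CPM without E2, 11.6 and 12.8 after 2 h, 11.4 and 10.5 after 4 h, and 11.8 and 11.7 after 8 h. The treated libraries were again below both 0 h libraries, but the change was smaller: -0.32 at 4 h passed narrowly (adjusted p = 0.0498), was lost in each fit that left out 1 Ishikawa library, and was lost under DESeq2 (adjusted p = 0.0582). With the 4 late libraries as 1 group, CDKN2B passed at -0.27 ± 0.0850 (SE; adjusted p = 0.0279). CDKN2B lies inside the antisense gene CDKN2B-AS1 without exonic overlap, and CDKN2B-AS1 held 102 to 217 counts per library, against 3102 to 4530 for CDKN2B in T-47D.

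CDKN2C was 42.5 and 38.6 CPM at 0 h in Ishikawa and 34.4 to 39.0 in the treated libraries, and 34.7 to 40.5 CPM in all 8 T-47D libraries. Its log2 fold changes lay between -0.21 (Ishikawa, 2 h, adjusted p = 0.141) and 0.13 (T-47D, 8 h, adjusted p = 0.155). CDKN2D was the lowest INK4 member in both lines, at 2.45 to 3.94 CPM in Ishikawa and 3.94 to 5.70 CPM in T-47D. Its lowest Ishikawa libraries were those of 4 h, at 2.45 and 2.48 CPM, but the log2 fold change of -0.45 there missed the threshold (adjusted p = 0.14). Its 95% interval at 8 h in T-47D ran from -0.50 to 0.17.

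**Figure D4:**
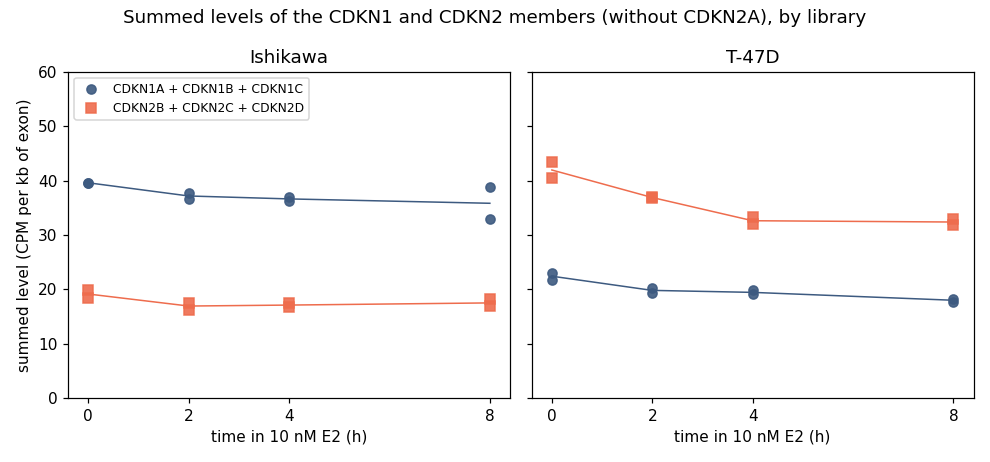
Summed CPM per kb of the 3 CDKN1 genes and the 3 CDKN2 genes in each library against hours in E2; lines join the means of 2 libraries. For these members, which do not include CDKN2A, the CDKN1 sum is the higher of the 2 in Ishikawa and the CDKN2 sum in T-47D at every time point.

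Summed per kb, the 6 inhibitor members amounted to 59.6 and 57.8 CPM per kb at 0 h in Ishikawa and to 63.6 and 65.1 in T-47D. This sum leaves out CDKN2A, the INK4 gene that is not a member and encodes p16 and ARF, which stood at 208 and 213 CPM in Ishikawa and at 47.9 and 48.5 CPM in T-47D. The 3 INK4 members supplied 33.5% and 31.6% of the sum in Ishikawa and 63.8% and 66.6% in T-47D. With CDKN2A added, the INK4 share was 65.0% and 64.9% in Ishikawa and 69.7% and 71.9% in T-47D, and the sum was 113 and 113 CPM per kb against 75.9 and 77.6. The gap between the lines in the INK4 share was thus much smaller with CDKN2A than over the members alone. The sums also depended on the gene model, since per kb of longest transcript the sum of the 6 was 82.1 and 79.6 in Ishikawa and 76.2 and 77.2 in T-47D, which turns the order of the totals, and with CDKN2A the INK4 share was then 78.1% and 78.5% in Ishikawa and 72.0% and 73.9% in T-47D. Both of these alternatives were chosen after seeing the data. At 8 h the T-47D sum of the 6 was 50.6 and 50.1 CPM per kb, below every 0 h library, and the Ishikawa sum was 56.9 and 49.7. The share of the 3 INK4 members ranged from 30.7% to 33.9% in Ishikawa and from 61.8% to 66.6% in T-47D over all time points.

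CCNG2, a FOXO target that rises when growth factor signalling is withdrawn, fell early and stayed low in both lines. In Ishikawa it was 105 and 93.7 CPM without E2, 63.3 and 65.5 after 2 h, 59.9 and 54.0 after 4 h, and 62.8 and 64.2 after 8 h. In T-47D it was 136 and 137 CPM without E2, 94.1 and 88.8 after 2 h, 105 and 101 after 4 h, and 82.7 and 91.9 after 8 h. In neither line did any treated library reach the 0 h level. The log2 fold change at 2 h was -0.61 ± 0.0681 (SE) in Ishikawa (adjusted p = 2.76e-05) and -0.58 ± 0.0544 in T-47D (adjusted p = 5.54e-07), leaving 65.3% and 66.8% of the 0 h level. At 8 h it was -0.65 in Ishikawa (adjusted p = 1.11e-05) and -0.64 in T-47D (adjusted p = 7.42e-08). In T-47D, CCNG2 was at -0.40 at 4 h, with both 4 h libraries above both 2 h libraries, a difference that was not tested. It was lower again at 8 h, with 8 h against 4 h at -0.24 ± 0.0542 (adjusted p = 0.0191). In Ishikawa, 4 h was the lowest point at -0.80, and -0.72 ± 0.0640 was obtained with the late libraries as 1 group (adjusted p = 7.45e-07).

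BTG1 and BTG2, which share the BTG domain and are induced by differentiation or DNA damage in many cells, fell with different reach. BTG1 in T-47D was 435 and 456 CPM without E2, 310 and 316 after 2 h, 321 and 312 after 4 h, and 276 and 304 after 8 h. The fall was in place by 2 h and the treated libraries were all below 0 h. Its log2 fold change was -0.52 ± 0.0472 (SE) at 2 h (adjusted p = 3.90e-07), -0.50 at 4 h and -0.62 ± 0.0472 at 8 h (adjusted p = 1.85e-08). In Ishikawa, where BTG1 was 13.4 to 16.3 CPM in all 8 libraries, the log2 fold changes were -0.13, -0.17 and -0.07 and none passed. A same-strand noncoding gene overlaps 503 exon bases of BTG1, and its row held at most 14 counts per library.

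BTG2, a p53 target and immediate-early gene, was 44.4 and 44.5 CPM without E2 in Ishikawa, 30.1 and 28.5 after 2 h, 35.3 and 27.7 after 4 h, and 30.6 and 31.7 after 8 h. All treated libraries were below 0 h, and the log2 fold change was -0.59 ± 0.0925 (SE) at 2 h (adjusted p = 0.000819), -0.49 at 4 h and -0.52 at 8 h, with -0.50 ± 0.0760 for the late libraries as 1 group (adjusted p = 0.000182). In T-47D it was 7.41 and 6.41 CPM without E2, 5.36 and 4.93 after 2 h, 3.42 and 4.74 after 4 h, and 3.57 and 3.45 after 8 h. Here too no treated library reached 0 h. The estimated fall was larger at each later time, but the 4 h and 8 h libraries overlapped. The difference of 8 h from 4 h, -0.20 ± 0.162 (SE), did not pass (adjusted p = 0.598). The log2 fold change was -0.43 ± 0.155 at 2 h (adjusted p = 0.0923), -0.78 ± 0.155 at 4 h (adjusted p = 0.00142) and -0.98 ± 0.159 at 8 h (adjusted p = 0.000126), when 50.8% of the 0 h level was left.

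TOB1, which binds the deadenylase and dampens growth when overexpressed, moved against the other members. In Ishikawa it was 35.4 and 30.6 CPM without E2, 102 and 105 after 2 h, 50.3 and 56.0 after 4 h, and 59.5 and 50.3 after 8 h. In T-47D it was 241 and 236 CPM without E2, 394 and 396 after 2 h, 364 and 356 after 4 h, and 334 and 360 after 8 h. Every treated library was above both 0 h libraries of its line, and the 2 h libraries were the highest in each. At 2 h the log2 fold change was 1.66 ± 0.0886 (SE) in Ishikawa (adjusted p = 7.06e-09), a rise to 316% of the 0 h level, and 0.72 ± 0.0428 in T-47D (adjusted p = 1.16e-09), a rise to 165%. At 8 h it was 0.73 in Ishikawa (adjusted p = 4.31e-05) and 0.54 in T-47D (adjusted p = 2.97e-08). For the Ishikawa late libraries as 1 group it was 0.72 ± 0.0769 (adjusted p = 5.82e-06). Even at its peak, TOB1 in Ishikawa remained below the level that T-47D held without E2. The antisense gene TOB1-AS1, which overlaps 281 exon bases of TOB1, held 6 to 64 counts per library, and whether counting used strand is not given in the sources used here. Opposite-strand noncoding genes with no row of counts overlap exon bases of CDKN2C (617), BTG1 (274) and CDKN1A (146). Their part in the counts of these members was not tested.

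Between 2 h and 8 h, TOB1 was the only Ishikawa member that passed (2.24% of genes passed), falling by 0.92 ± 0.0857 (SE) on the log2 scale (adjusted p = 4.63e-05), and by 0.94 against the late libraries as 1 group, where CDKN1C passed as well at -0.47 (adjusted p = 0.0447). In T-47D, 4 members passed (16.8% of genes passed), all lower at 8 h: BTG2 at -0.54, CDKN2B at -0.39, TOB1 at -0.18 and CDKN1A at -0.18. The CDKN1A call (adjusted p = 0.0442) was lost in 6 of the 8 fits that left out 1 library (any of the 2, 4 or 8 h libraries), the BTG2 call without any 2 h or 8 h library, and the TOB1 call without replicate 2 of 2 h (adjusted p = 0.0572). TOB1 was thus lower at 8 h than at 2 h in both lines, while still above 0 h.

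**Figure D5:**
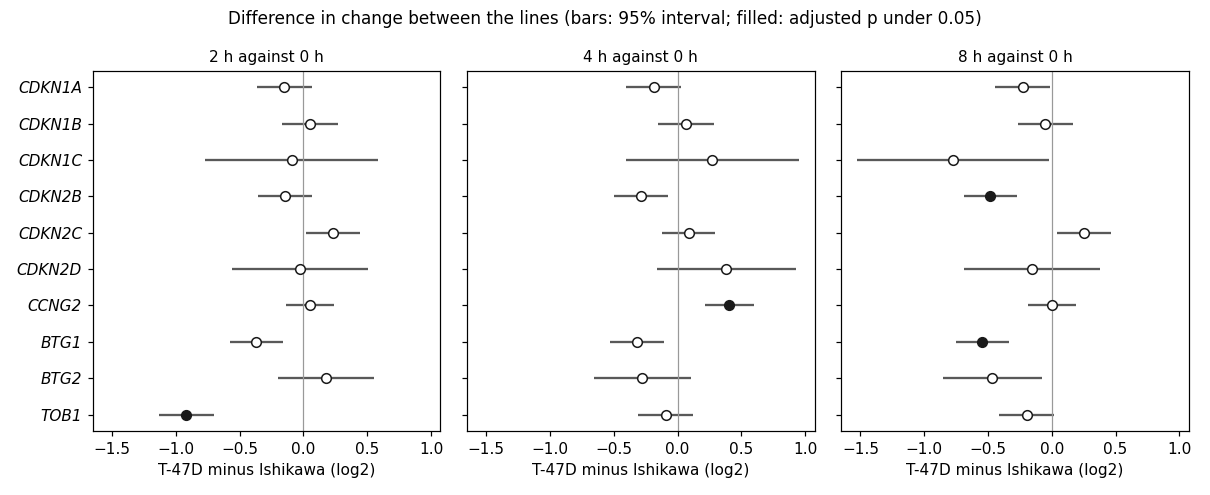
Difference in log2 fold change against 0 h, T-47D minus Ishikawa, for each gene at 2, 4 and 8 h, with 95% intervals; filled points passed an adjusted p of 0.05. TOB1 stands alone at 2 h, CCNG2 at 4 h, and CDKN2B and BTG1 at 8 h.

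Whether the response itself differed between the lines was tested as an interaction over all 16 libraries. At 2 h, TOB1 alone passed (2.67% of genes passed): its rise was smaller in T-47D by 0.92 ± 0.103 (SE) on the log2 scale (adjusted p = 5.68e-06), with a 95% interval from -1.13 to -0.70. At 4 h, CCNG2 alone passed (6.03%), having fallen less in T-47D by a log2 difference of 0.41 ± 0.0913 (adjusted p = 0.00872), or 0.32 (adjusted p = 0.0389) against the Ishikawa late libraries as 1 group. This call was lost without replicate 2 of Ishikawa 4 h (adjusted p = 0.0535) or without replicate 1 of T-47D 4 h (0.0617). At 8 h, BTG1 and CDKN2B passed (10.0%), both having fallen further in T-47D, by log2 differences of -0.55 ± 0.0993 (adjusted p = 0.000906) and -0.48 ± 0.1005 (adjusted p = 0.00316). Against the Ishikawa late libraries as 1 group they were -0.50 (adjusted p = 0.00102) and -0.44 (adjusted p = 0.0037). For BTG1 the difference at 2 h was -0.37 (adjusted p = 0.0535) and passed with RLE scaling (adjusted p = 0.0364), with DESeq2 and in 8 of the 16 fits that left out 1 library. For BTG2 at 8 h it was -0.47, with an interval from -0.85 to -0.08, and did not pass (adjusted p = 0.130), while without a filter on low counts it did (-0.48, adjusted p = 0.0322). For CDKN1A at 8 h it was -0.23 (adjusted p = 0.190), and -0.39 without replicate 2 of Ishikawa 8 h, when it passed (adjusted p = 0.0065). For CCNG2 at 2 h and 8 h the intervals of the difference were -0.14 to 0.24 and -0.19 to 0.19. For CDKN1B they ran from -0.17 to 0.27 at 2 h and from -0.27 to 0.17 at 8 h.

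The G1/S list holds cyclins, kinases and E2F factors of the step these proteins restrain. It also holds the retinoblastoma gene RB1 and its relatives RBL1 and RBL2, whose proteins hold E2F factors back. All list counts at 8 h are to be read against the shares over all tested genes, which were 12.0% up and 10.1% down in Ishikawa and 15.4% up and 14.3% down in T-47D, and no list was tested between the lines. Of 16 listed genes in Ishikawa, 3 rose and 1 fell at 8 h, and of 15 tested in T-47D, 9 passed, all upward, with a median log2 fold change of 0.11 and 0.22 against -0.0088 and 0.0030 over all genes. The 9 include RB1 (0.22) and RBL1 (0.50), so not all of these rises were in genes that drive the step. CCND2, a D-type cyclin, rose furthest in Ishikawa, from 25.9 and 25.9 CPM to 47.9 and 45.1 (0.84 on the log2 scale), while E2F1 fell there by 0.25. CDC25A, the phosphatase that activates CDK2, rose furthest in T-47D, from 15.96 and 16.98 CPM to 29.5 and 28.7 (0.82). CCND1, encoding cyclin D1, rose at every time point in both lines, by 0.39 at 8 h in Ishikawa and by 0.43 in T-47D. Of 10 genes for turnover of the inhibitor proteins, 1 rose at 8 h in Ishikawa (CUL4A, 0.17) and 4 rose in T-47D (SKP2, DTL, CUL4A and PCNA), with DTL, which directs p21 to degradation, going from 54.4 and 52.5 CPM to 94.2 and 97.3 (0.84).

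Of 15 FOXO target genes, 7 passed at 2 h in Ishikawa, all downward, and 1 rose and 6 fell of 14 tested in T-47D, the medians being -0.30 and -0.21, against 1.74% of all tested genes down at 2 h in Ishikawa and 4.90% up and 4.40% down in T-47D. At 8 h, 3 rose and 8 fell in Ishikawa and 1 rose and 7 fell in T-47D. PIK3IP1, an inhibitor of PI3K, fell furthest in Ishikawa (-1.01), and FBXO32, a ubiquitin ligase, fell furthest in T-47D, from 169 and 154 CPM to 79.2 and 73.3 (-1.08). BCL2L11 rose furthest in Ishikawa (0.33) and IRS2 in T-47D (0.65). Of 22 p53 target genes, 0 rose and 4 fell at 2 h in Ishikawa and 1 rose and 4 fell in T-47D. At 8 h, 6 rose and 9 fell in Ishikawa and 5 rose and 6 fell in T-47D. PLK2 went from 375 and 358 CPM to 186 and 181 in Ishikawa (-1.001), BBC3 fell furthest in T-47D (-0.88), and AEN rose furthest in both lines (0.33 and 1.26). At 2 h the genes that passed in both lists thus moved mainly down. At 8 h the p53 list moved both ways, whereas the FOXO list still moved mainly down.

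Of 15 regulators of the members, 2 rose and 1 fell at 8 h in Ishikawa and 1 rose and 3 fell in T-47D, which is near the share over all genes (22.1% and 29.7% in either direction). In Ishikawa BCL6 changed by -0.46 at 8 h, and EGR1 was lower at 2 h (-0.90) and higher at 8 h (0.56). In T-47D EGR1 was -1.04 at 2 h (adjusted p = 0.0401) and did not pass at 8 h. In T-47D at 8 h, TFAP4, a repressor of CDKN1A, went from 3.51 and 2.75 CPM to 6.58 and 6.52 (1.06), and SMAD3, which activates CDKN2B in TGFβ signalling, went from 24.6 and 28.4 CPM to 15.7 and 15.1 (-0.79). Of 14 deadenylase genes and other partners of BTG and TOB, 1 rose in Ishikawa at 8 h (CNOT7, 0.33) and 2 rose in T-47D (CNOT6, 0.46, and PRMT1), and these were all that passed. Of the 7 other family members, 6 were tested in each line. BTG3 rose in Ishikawa (0.20), and CDKN2A, which encodes p16 and ARF, and TOB2, the paralog of TOB1, fell in T-47D, both by 0.32. Several genes stand in more than 1 list (MDM2, SESN1, GADD45A, BCL6 and KLF6).

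Across the 16 libraries, with each line centred on its own 0 h mean, the genes whose log2 CPM followed TOB1 most closely among 11902 well-measured genes were RNF223 (Pearson r = 0.969), FOXK1 (0.947), EHD1 (0.944), CHD9 (0.923) and CYP1B1 (0.913). RNF223 rose by 3.21 at 2 h in Ishikawa and by 1.49 in T-47D on the log2 scale. For CDKN1C, the member furthest from its start at 8 h in T-47D, they were MKRN1 (0.925), TUG1 (0.920), ANO6 (0.914), CALD1 (0.912) and SGPL1 (0.902). These r values describe 16 libraries that share time points and lines, and the genes were picked for their likeness. Among the members themselves, CDKN2B tracked BTG1 (0.869), BTG2 (0.850) and CDKN1A (0.813) most closely over the same libraries.

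Of the marker lists of other cell types, the leukocyte list summed to 4.29 to 5.59 CPM and the endothelial list to 0.0483 to 0.214 CPM in T-47D, and 1 of 4 leukocyte and 1 of 4 endothelial markers exceeded 1 CPM in Ishikawa. The fibroblast list, nearly all COL1A1 in Ishikawa, with 3 of its 4 genes not above 1 CPM there, fell with time in both lines. Its sum was 247 to 270 CPM at 0 h, 210 to 228 at 2 h, 150 to 198 at 4 h and 161 to 182 at 8 h in Ishikawa. In T-47D, where COL1A1 and LUM were above 1 CPM, it was 93.9 to 101 CPM at 0 h and 77.2 to 83.3 at 8 h. In Ishikawa the endothelial sum also went from 8.17 to 8.59 CPM at 0 h to 5.18 to 7.22 at 8 h, and the endometrial sum from 389 to 430 CPM to 312 to 325. The epithelial sum in T-47D was 6575 to 6882 CPM at 0 h and 8168 to 8729 CPM after E2. In Ishikawa the epithelial sum moved the other way, from 2683 to 2706 CPM at 0 h to 2374 to 2619 at 8 h. The part of these lists in the falls of CCNG2, BTG2 and CDKN1C in Ishikawa and in the changes in T-47D was not tested.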

How the data were processed

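Poly(A) RNA libraries of both lines were sequenced, and the authors used HISAT2 for alignment on hg19 and SAMtools for the alignment files, then deposited raw counts per gene, 1 table per line, that featureCounts had assigned on the UCSC Known Genes models. Versions, strand setting and the treatment of pairs and of multimapping reads are not given in the sources used here. Even numbers made up 71.2% to 74.6% of counts from 1 to 10, so a count need not be 1 independent fragment, and the counting error is then larger than the count implies. Samples were grouped by line and hour from their labels, which give 3 days in hormone-deprived medium (the study's text gives another length). No replicate pair held identical values, and replicates differed by more than sampling noise (chi-square per gene 3.60 to 10.8).

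The deposited counts entered edgeR 4.0.16 in R 4.3.3 (filterByExpr, TMM scaling, quasi-likelihood F-test, Benjamini-Hochberg adjusted p under 0.05). Each line was fitted alone, all 4 time points together, for 2, 4 and 8 h against 0 h and 8 h against 2 h. All 16 libraries were fitted together for the difference at 0 h and the interactions. SE is the log2 fold change over the square root of F. The common biological coefficient of variation was 6.45% (Ishikawa), 5.02% (T-47D) and 5.82% (both). CPM values use TMM library sizes over the 16 libraries, and log2 CPM a prior count of 2. The script was tested on simulated data. DESeq2 1.42.0, RLE scaling, other filters, other thresholds, a replicate block, subset fits and leaving out each library were the alternatives, and treating the Ishikawa 4 h and 8 h libraries as 1 group in the fit of both lines was added after seeing the data, as were sums of the inhibitor genes with CDKN2A and per kb of longest transcript. Replicate numbers did not pair the libraries (deviations of same-numbered libraries correlated at -0.115 to 0.0533 in Ishikawa and -0.0547 to 0.0595 in T-47D).

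Lengths and exons came from GENCODE on GRCh37, which is not the annotation the authors counted on and which matched 90.5% of symbols. The members and pathway lists were chosen with earlier results of these data known. All members are named. Of each list, the called genes with the largest rise and fall at 8 h in each line are named, and further called genes (CCND1, RB1, RBL1, SKP2, PCNA, PRMT1, TOB2) were named after their values were seen. For the member with the largest change at 8 h in each line, the 5 genes with the highest r are named, among genes with a mean of at least 50 counts in both lines.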

Additional observations from a re-analysis of the deposited data

Results flagged for a closer look

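A change that differed between the lines by the interaction test of edgeR was found for 4 members, given here as the T-47D minus the Ishikawa log2 fold change. For TOB1 at 2 h the difference was -0.92, from 0.72 in T-47D and 1.66 in Ishikawa. For CCNG2 at 4 h it was 0.41, from -0.40 and -0.80. For CDKN2B at 8 h it was -0.48, from -0.71 and -0.23, and for BTG1 at 8 h it was -0.55, from -0.62 and -0.07. The last 3 differences rest on Ishikawa libraries that did not separate by their 4 h and 8 h labels, and each passed as well with these 4 libraries as 1 group.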

How the results depend on the processing

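The rise of TOB1 and the falls of CCNG2 in both lines, of BTG2 in Ishikawa and of BTG1 and CDKN2B in T-47D kept their direction and call at every time point under each alternative run. Counts of members moved as follows. With an adjusted p under 0.01, 3 passed at 4 h in Ishikawa and 2 at 8 h against 2 h in T-47D. Members whose change differed between the lines at 2 h numbered 2 with an adjusted p under 0.1, DESeq2, RLE scaling, with no filter, with a minimum of 10 counts per library and with only the groups compared. At 4 h they numbered 2 with an adjusted p under 0.1, RLE scaling and no filter, and 3 with DESeq2 and with the Ishikawa 4 h and 8 h libraries as 1 group. The added member was BTG1 in each of these, joined by CDKN2B where there were 3. With the late libraries as 1 group, 2 members passed at 8 h against 2 h in Ishikawa. Leaving out 1 library gave 3 to 4 members at 4 h in Ishikawa, 1 to 4 at 8 h against 2 h in T-47D, and 1 to 2, 0 to 2 and 2 to 4 that differed between the lines at 2, 4 and 8 h. Without a filter, BTG2 at 2 h in T-47D passed (adjusted p = 0.0440).

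With the replicate block, 3 members passed at 2 h and 4 at 4 h in Ishikawa, and 3 at 8 h against 2 h in T-47D. CDKN1B (2 h), CDKN2B (4 h) and CDKN1A (8 h against 2 h) were the calls lost, with adjusted p = 0.0610, 0.0657 and 0.0594, and no other call changed. The replicate numbers did not pair the libraries, so this is no sign of a weaker effect.

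Direction turned only for changes that were not called in the fit reported. In T-47D, CDKN2C at 4 h was 0.0022 with DESeq2, 0.0021 with RLE scaling, 0.0074 without a filter and 0.0070 with at least 10 counts, and CDKN2D at 2 h was 0.0067 without a filter, 0.0069 with at least 10 counts and 0.0063 with only the time points compared. The difference between lines at 8 h was -0.030 with DESeq2 and -0.030 with RLE scaling, -0.012 without a filter, -0.0047 with at least 10 counts and -0.027 with only the groups compared for CCNG2, and 0.045 for CDKN2D with the late libraries as 1 group. Ranges over fits without 1 library that crossed 0 were, in Ishikawa, CDKN1A -0.039 to 0.014 and CDKN2D -0.18 to 0.22 at 2 h, CDKN2D -0.11 to 0.069 and BTG1 -0.21 to 0.059 at 8 h, and CDKN1A -0.26 to 0.013, CDKN2D -0.24 to 0.17 and BTG1 -0.074 to 0.19 at 8 h against 2 h. In T-47D they were CDKN2C -0.040 to 0.063 and CDKN2D -0.16 to 0.14 at 2 h, CDKN2C -0.051 to 0.062 at 4 h, CDKN1B -0.25 to 0.019 and CDKN2D -0.39 to 0.042 at 8 h, and CDKN1B -0.053 to 0.21, CDKN2D -0.39 to 0.036 and CCNG2 -0.14 to 0.0071 at 8 h against 2 h. For the difference between lines they were CDKN1B -0.040 to 0.11, CDKN2D -0.25 to 0.20 and CCNG2 -0.062 to 0.13 at 2 h, CDKN1B -0.0056 to 0.12 and TOB1 -0.22 to 0.0035 at 4 h, and CDKN1B -0.19 to 0.079, CDKN2D -0.38 to 0.045 and CCNG2 -0.11 to 0.080 at 8 h. CDKN1B at 8 h in T-47D passed in 1 of these fits, without replicate 2 of 8 h (adjusted p = 0.0225). Depth limits CDKN1C in T-47D, with 11 to 43 counts per library. The causes were not tested.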
